A study of Mus musculus with 6 samples.

Results

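The let-7 family, with its close relative miR-98, comprises 9 of the 534 mouse miRNA names on these arrays: mmu-let-7a, mmu-let-7b, mmu-let-7c, mmu-let-7d, mmu-let-7e, mmu-let-7f, mmu-let-7g, mmu-let-7i and mmu-miR-98, written below without the mouse prefix. The members were taken by name, as every mouse probe called let-7 with any letter, or miR-98, whatever its arm. That gave 21 of the 1083 probes named for mouse miRNAs, in a table of 2990 probes. They comprise 9 probes of the mature miRNAs, 8 probes whose names carry a star and 4 probes whose names end in -P. A star was read as the minor arm of the hairpin and -P as a precursor region, readings that the labels do not give. The arrays also hold 22 human-named probes of the family, which served as a check on the same 6 RNA samples. Not all of them have a mouse-named probe of the same name.

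The samples were lineage-negative, cKit-positive bone marrow cells, a population enriched for blood stem and progenitor cells, from female C57BL/6 mice 10 weeks old. Knockout mice (cKO, genotype Rprtf/f, Mx1-Cre+, n = 3) were compared with littermate controls (Ctrl, Rprtf/f, Mx1-Cre-, n = 3). All 6 mice carried both floxed Raptor alleles, and all received 7 injections of 400 µg polyinosinic:polycytidylic acid (pIpC), an inducer of interferon, with cells taken 10 days after the last. Mx1-Cre is switched on by interferon in blood cells and in other tissues, so the deletion need not be confined to blood cells. Raptor is the scaffold of mTORC1, a kinase complex that couples nutrient and growth signals to cell growth. The comparison asked whether its loss alters miRNAs. No probe for Raptor itself was used, so the deletion was not measured here.

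A let-7 gene is transcribed as a long primary RNA, from which Drosha cuts a hairpin and Dicer then releases a short duplex. The mature strand is loaded into Argonaute and guides it to messenger RNAs, while the star strand is mostly discarded. Bases 2 to 8 of the mature strand, the seed, choose the targets, and all members share it. The family is known for restraining Lin28b, Hmga2 and Myc, and for a low level in fetal and a higher level in adult blood stem cells, where Lin28b blocks let-7 maturation in the fetus.

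The mature sequences of the 9 members are shown because their likeness bears on how far single probes can be told apart. They are from RefSeq (GRCm38.p6), 5′ to 3′, with the seed in capitals.
let-7a: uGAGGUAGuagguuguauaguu
let-7b: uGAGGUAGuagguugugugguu
let-7c: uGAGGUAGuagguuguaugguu
let-7d: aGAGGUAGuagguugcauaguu
let-7e: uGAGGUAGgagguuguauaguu
let-7f: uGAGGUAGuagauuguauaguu
let-7g: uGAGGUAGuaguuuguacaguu
let-7i: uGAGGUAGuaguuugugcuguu
miR-98: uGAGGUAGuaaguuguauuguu

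Each is 22 bases long, and all 9 carry the seed GAGGUAG. Counted from 1 at the 5′ end, with the base of let-7a first, let-7c differs from let-7a by A19G, let-7e by U9G and let-7f by G12A. let-7b differs by A17G and A19G, let-7d by U1A and U16C, let-7g by G12U and U18C, and miR-98 by G11A and A19U. let-7i is the farthest from let-7a, with G12U, A17G, U18C and A19U.

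RefSeq places the family at 12 hairpin loci on 7 chromosomes of GRCm38.p6. On chromosome 13, minus strand, Mirlet7a-1 (chr13:48538179-48538272), Mirlet7f-1 (chr13:48537829-48537917) and Mirlet7d (chr13:48536012-48536114) follow each other with 261 and 1714 bases between them. On chromosome 15, Mirlet7c-2 (chr15:85706603-85706697) and Mirlet7b (chr15:85707319-85707403) are 621 bases apart within the span of the long non-coding RNA gene Lncppara. On chromosome X, Mirlet7f-2 (chrX:151912346-151912428) and Mir98 (chrX:151913214-151913321) lie 785 bases apart within the span of Huwe1, a ubiquitin ligase gene. The other loci are Mirlet7a-2 within Mir100hg (chr9:41536716-41536811), Mirlet7g within Wdr82 (chr9:106178840-106178927), Mirlet7i (chr10:122985640-122985724), Mirlet7c-1 (chr16:77599657-77599750) and Mirlet7e within Spaca6 (chr17:17830352-17830444). The mature sequences of let-7a, let-7c and let-7f are each made from a pair of loci, so their probes cannot tell the loci apart.

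The hairpin of let-7d is shown because it holds the mature and the star strand of the one member that passed the test. The capitals mark let-7d (the 5′ arm) and let-7d* (the 3′ arm), and the strand printed is the minus strand of chr13:48536012-48536114.
Mirlet7d hairpin: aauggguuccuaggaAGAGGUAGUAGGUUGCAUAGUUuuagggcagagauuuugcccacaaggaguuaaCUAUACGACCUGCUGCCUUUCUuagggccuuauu

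Values are the deposited relative intensities, linear readings that were scaled once per array. Background on each array was set at the 95th percentile of its 38 probes of random sequence, a level between 0.377 and 0.463. Over all mouse probes the median log2 value was 0.038 higher in cKO and the mean 0.15 higher. The snoRNA and GAPDH probes, 6 in number, were 0.58 higher, and the random-sequence probes differed by -0.039. Of marker probes, 4 of 8 for stem and progenitor cells, 2 of 3 myeloid, 3 of 3 lymphoid, 1 of 3 erythroid and 1 of 5 stromal were above background on all 6 arrays. The probes of miR-125b and miR-126, markers of stem cells, were near background, on at most 1 array above it. Of liver and muscle markers (4 probes), none was above background on all arrays, and of brain markers 1 of 2 was.

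Of the 9 mature probes, let-7d rose in cKO cells, by 1.70-fold, and the other 8 did not pass limma's test at an adjusted p under 0.05. That is 1 of 21 family probes higher and 0 lower, where 6.46% of all 1083 mouse probes were higher and 0.369% lower (8.29% of mature mouse probes higher), so the count is near the background. At an unadjusted p under 0.05, 5 mature probes were higher (let-7a, let-7c, let-7d, let-7e and let-7g), and no family probe was lower. At that threshold 18.4% of all mature mouse probes were higher and 1.99% lower, and of all mouse probes 14.6% were higher and 2.12% lower. For let-7a, let-7b, let-7c, let-7d, let-7e and let-7g, all 3 cKO arrays read higher than all 3 Ctrl arrays. The arrays of let-7f, let-7i and miR-98 overlapped. In whole cell populations, a change in the RNA per cell and a change in the share of a cell type cannot be told apart.

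let-7d, known for targeting Hmga2, read 1.51, 1.53 and 1.63 on the cKO arrays and 0.900, 0.935 and 0.901 on the Ctrl arrays. The groups lay far apart against their own spread, with a mean of 1.55 ± 0.0644 among knockouts against 0.912 ± 0.0202 among controls (SD over 3 arrays each). Its log2 difference was 0.77 ± 0.20 (SE; limma adjusted p = 0.0367). The call was lost in 5 of the 6 fits that left out 1 array, all but the one without cKO replicate 3, with limma adjusted p between 0.0121 and 0.194, while the log2 difference in these 6 fits kept to 0.73 to 0.79. After median centring the call was also lost with little change in size (0.73, limma adjusted p = 0.0505). The difference itself came down to 0.40 after quantile normalization (limma adjusted p = 0.303) and to 0.19 with snoRNA and GAPDH scaling (limma adjusted p = 0.572).

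let-7c, encoded once beside let-7b and once beside miR-99a, read 2.48, 2.83 and 3.07 in cKO against 1.71, 1.72 and 1.83 in Ctrl. Its log2 difference of 0.67 ± 0.25 did not pass (limma adjusted p = 0.167), although the groups did not overlap. let-7g, whose gene lies within Wdr82, read 1.17, 1.25 and 1.13 in cKO and 0.714, 0.894 and 0.759 in Ctrl. Its log2 difference was 0.59 ± 0.19 (limma adjusted p = 0.0945), and it passed without cKO replicate 3 (limma adjusted p = 0.0266). The differences of let-7c and let-7g remained above 0 under every scaling tried, but came down to 0.09 and 0.02 with snoRNA and GAPDH scaling.

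let-7a, whose mature sequence is the same from worm to human, read 1.41, 1.67 and 1.59 in cKO and 1.09, 0.960 and 1.19 in Ctrl. The groups did not overlap, and the log2 difference was 0.53 ± 0.22 (limma adjusted p = 0.216). let-7e, encoded between miR-99b and miR-125a, read 1.09, 1.21 and 0.988 in cKO and 0.746, 0.857 and 0.823 in Ctrl. Here too every cKO array stood above every Ctrl array, with a log2 difference of 0.44 ± 0.19 (limma adjusted p = 0.255). let-7b, known in blood cells for lowering Hmga2 as fetal stem cells turn adult, read 3.03, 3.18 and 3.26 in cKO and 2.75, 2.20 and 2.59 in Ctrl. Its log2 difference of 0.34 ± 0.27 was small against its error (limma adjusted p = 0.646), and Ctrl replicate 2 was the lowest array. All 3 differences turned below 0 with snoRNA and GAPDH scaling (let-7a -0.05, let-7e -0.14, let-7b -0.24), and that of let-7b also after quantile normalization (-0.19).

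For the other mature members the difference was smaller than its error. let-7i, known for targeting the innate immune receptor TLR4, read 1.76, 1.84 and 1.64 in cKO and 1.56, 1.57 and 1.87 in Ctrl, where the highest array of all was a Ctrl array. Its log2 difference was 0.07 ± 0.24, with a 95% confidence interval from -0.44 to 0.58. let-7f, encoded in the chromosome 13 cluster with let-7a and let-7d and again beside miR-98, read 0.604, 0.815 and 0.604 in cKO and 0.596, 0.747 and 0.720 in Ctrl. The log2 difference of let-7f was -0.04 ± 0.18, with an interval from -0.42 to 0.35. Both intervals span changes in either direction.

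miR-98, which has the let-7 seed and lies beside let-7f-2, read 0.544, 0.401 and 0.300 in cKO and 0.438, 0.502 and 0.423 in Ctrl. It exceeded background on 1 cKO array and on 2 Ctrl arrays, with a log2 difference of -0.17 ± 0.18. The human-named miR-98 probe, also dim but above background on all 6 arrays, read 0.504, 0.407 and 0.392 in cKO and 0.452, 0.466 and 0.449 in Ctrl. On both probes the cKO arrays held the highest and the lowest reading.

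**Figure D1:**
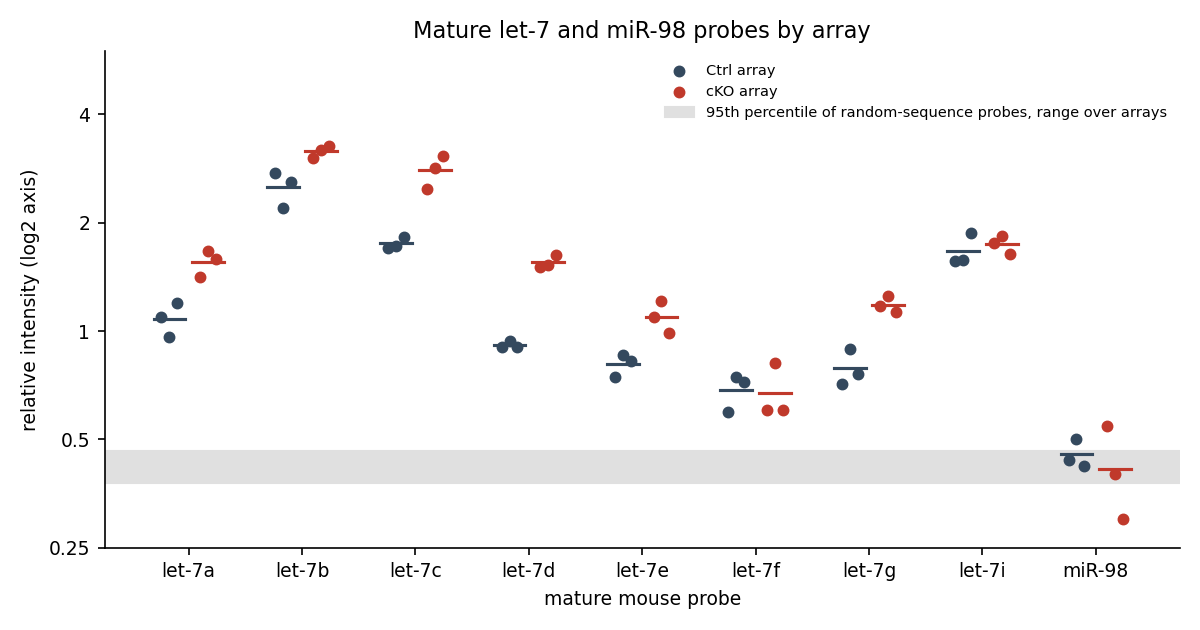
Relative intensity (log2 axis) of the 9 mature mouse probes on each array, as points, with a bar at each group mean; the grey band spans the background level, 0.377 to 0.463 over the 6 arrays. The 3 cKO points stand above the 3 Ctrl points for let-7a, let-7b, let-7c, let-7d, let-7e and let-7g and overlap for let-7f, let-7i and miR-98. Under snoRNA and GAPDH scaling the differences of let-7a, let-7b, let-7e and let-7i turn below 0.

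As a group, the 9 mature probes had a mean log2 value of 0.40, 0.49 and 0.34 on the cKO arrays and 0.00080, 0.069 and 0.095 on the Ctrl arrays. Every cKO array was above every Ctrl array, by 0.35 on average, but this difference was 0.0049 after quantile normalization and -0.22 with snoRNA and GAPDH scaling. The median of the 9 log2 differences was 0.44, against 0.06 over all 603 mature mouse probes. Since many of those 603 lie in the background, the 271 that exceeded it on all 6 arrays give the closer comparison: their median was 0.29, against 0.48 for the 8 family members among them. Groups without overlap and higher in cKO made up 6 of the 9 mature family probes, where 20.1% of the 603 behaved so (15.8% of all mouse probes). Among probes above background on all 6 arrays, they made up 6 of the 8 family members and 34.3% of the 271. The family shares stood above those of the larger sets, a description for which no test was made.

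Among marker probes of blood cells, limma called 3 of 8 for stem and progenitor cells higher (miR-130a, miR-146a and miR-155). The other stem and progenitor probes had log2 differences between -0.35 (miR-99a) and 0.07 (miR-125b-5p). In the other lists, 1 of 3 lymphoid (miR-342-3p), 0 of 3 myeloid and 0 of 3 erythroid probes were called higher. None of these lists held a probe called lower. Of all mouse probes, 6.46% were called higher and 0.369% lower. The sums of linear intensities are carried by their brightest probes, which for stem and progenitor cells were miR-130a, miR-146a and miR-155. The myeloid markers summed to between 22.7 and 40.9 in cKO against 16.7 to 18.2 in Ctrl, the lymphoid markers to between 4.39 and 7.97 against 2.29 to 2.56, and the stem and progenitor markers to between 8.37 and 10.7 against 5.27 to 5.62. The erythroid sums overlapped (1.80 to 2.24 and 1.77 to 2.76), as did the stromal sums (2.39 to 4.12 and 2.07 to 2.60). The part of cell composition, or of the brighter snoRNA and GAPDH probes, in the let-7 differences was not tested.

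None of the star and precursor probes passed the test. Of 8 star probes and 4 -P probes, 0 passed limma's test in either direction, and 0 reached an unadjusted p under 0.05. At a limma adjusted p under 0.05, 5.0% of all 120 mouse star probes were higher and 0.0% lower. Of all 360 mouse -P probes, 3.89% were higher and 0.556% lower at that threshold. At an unadjusted p under 0.05, 14.6% of all mouse probes were higher and 2.12% lower. Unadjusted shares for star and -P probes alone are not given here. The star probes read between 0.259 and 0.601; 4 of the 8 were above background on no array, and 0 on all 6. For the -P probes the readings ran from 0.258 to 0.530, with 2 of the 4 above background on no array.

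let-7d*, the partner strand of the member that rose, read 0.556, 0.601 and 0.515 in cKO and 0.479, 0.535 and 0.427 in Ctrl. The groups overlapped, and its log2 difference of 0.22 ± 0.14 was the highest among the star probes (limma adjusted p = 0.519). Within same-numbered arrays, cKO was higher in 3 of 3 for let-7d*, let-7a* and let-7e-P and for no other mouse star or -P probe. How many of all mouse probes did so was not counted, and whether the numbers pair the arrays was not settled. With replicate number as a block, let-7d* did not pass either (limma adjusted p = 0.446). let-7c-2* followed with 0.08 ± 0.14 and let-7a* with 0.04 ± 0.11. The other star probes, let-7b*, let-7i*, let-7f*, let-7c-1* and let-7g*, had log2 differences between -0.11 and -0.01. All 8 groups overlapped.

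Among the precursor probes, let-7e-P gave a log2 difference of 0.13 ± 0.13, mir-98-P of 0.02 ± 0.11, let-7f-2-P of -0.06 ± 0.09 and let-7a-2-P of -0.11 ± 0.11. let-7e-P was above background on 3 cKO arrays and 1 Ctrl array. let-7a-2-P and let-7f-2-P were above it on none. The human-named let-7a2-p probe was above it on all 6 arrays, reading 0.849, 1.03 and 0.742 in cKO and 0.625, 0.712 and 1.23 in Ctrl. These groups overlapped, with a log2 difference of 0.08 ± 0.25 (95% confidence interval from -0.48 to 0.64).

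The mature mean minus the star mean was taken within each array, so a factor that scales all values of an array alike cancels. It was 1.73, 1.88 and 1.78 in cKO and 1.40, 1.38 and 1.53 in Ctrl. All cKO arrays were higher, by 0.36 on the log2 scale (1.80 ± 0.0771 and 1.44 ± 0.0824, SD, n = 3 each). Because the mouse-named star probes lie near background, this is close to a comparison of the mature probes with background and does not measure the ratio of the strands. A rise of bright probes that left background unchanged would not cancel in it. The snoRNA and GAPDH probes were 0.58 higher in cKO, while the random-sequence probes differed by -0.039. The part of such a rise was not tested.

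**Figure D2:**
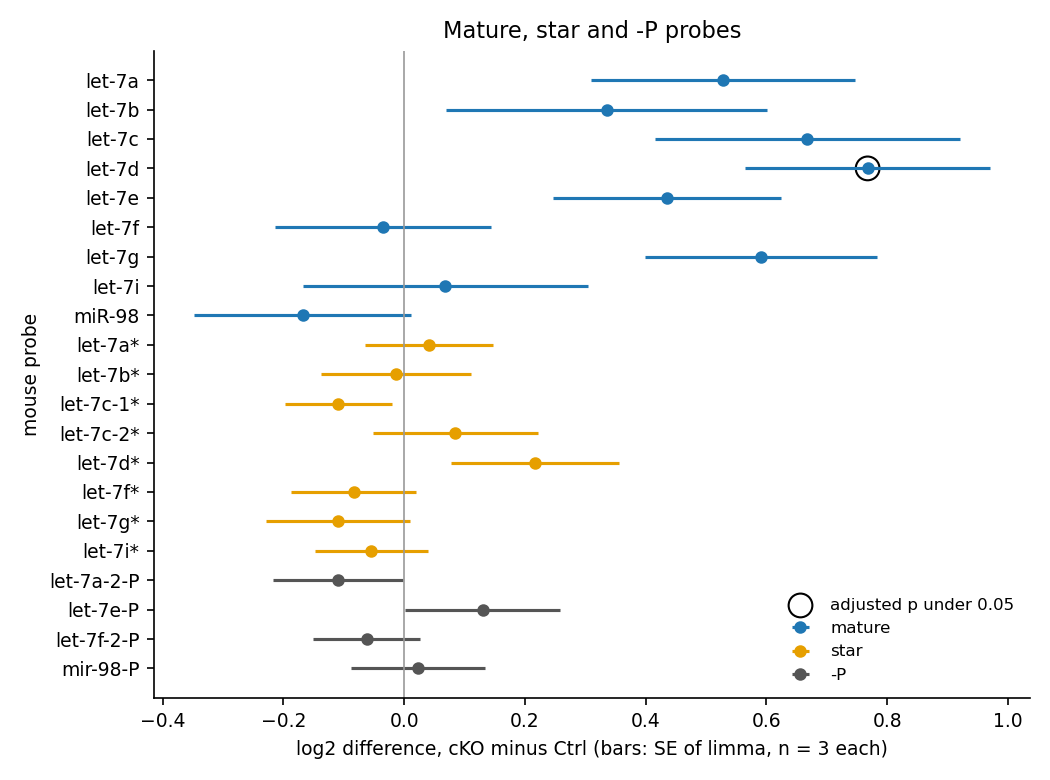
Log2 difference between cKO and Ctrl for the 21 mouse probes, with bars for limma's SE (n = 3 each), coloured by mature, star and -P probe; the open ring marks an adjusted p under 0.05. let-7d is the ringed probe at 0.77, and the star and -P probes lie between -0.11 and 0.22; snoRNA and GAPDH scaling lowers all 21 by 0.58.

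Probes whose miRNAs differ by a single base allow a comparison within each array, which a factor common to all its probes cannot alter. A gain that differs between bright and dim probes would not cancel. RefSeq gives 4 such pairs, and the ratio of the probes was compared between the groups by an exact two-sided permutation test over the arrays, whose p cannot go below 0.1 with 3 against 3. The log2 ratio of let-7a over let-7f, which differ by G12A, was 1.23, 1.04 and 1.39 in cKO and 0.876, 0.363 and 0.731 in Ctrl. It was higher by 0.56 in cKO with no overlap (exact p = 0.1, adjusted over 4 pairs 0.2). The ratio of let-7b over let-7c was 0.289, 0.168 and 0.0901 in cKO and 0.691, 0.348 and 0.506 in Ctrl.

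That ratio of let-7b over let-7c was thus lower in cKO by 0.33 on the log2 scale, again with no overlap (exact p = 0.1, adjusted 0.2). Both miRNAs are encoded in the chromosome 15 pair, but let-7c is also encoded on chromosome 16, and its probe cannot tell these loci apart. The ratio of let-7a over let-7c changed by -0.14 (exact p = 0.3, adjusted 0.4) and that of let-7a over let-7e by 0.09 (exact p = 0.7, adjusted 0.7), and both overlapped between the groups. The human-named log2 differences were 0.31 for let-7b and 0.51 for let-7c, and 0.76 for let-7a and -0.13 for let-7f. On human-named probes, let-7b over let-7c read 3.62 over 2.00, 3.91 over 2.41 and 3.36 over 2.27 in cKO. In Ctrl it read 3.12 over 1.73, 2.61 over 1.42 and 3.05 over 1.54. This ratio was about the same on cKO 1 as on Ctrl 1, and lower on the other cKO arrays than on every Ctrl array. For let-7a over let-7f, human-named readings were 2.18 over 0.848, 2.20 over 0.766 and 2.63 over 0.699 in cKO. They were 1.45 over 0.777, 1.30 over 0.748 and 1.36 over 1.02 in Ctrl, higher in cKO with no overlap. Ratios of human-named probes were not tested. How much signal each probe takes from its near neighbours was not tested, because no mismatch probe carries a let-7 name.

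**Figure D3:**
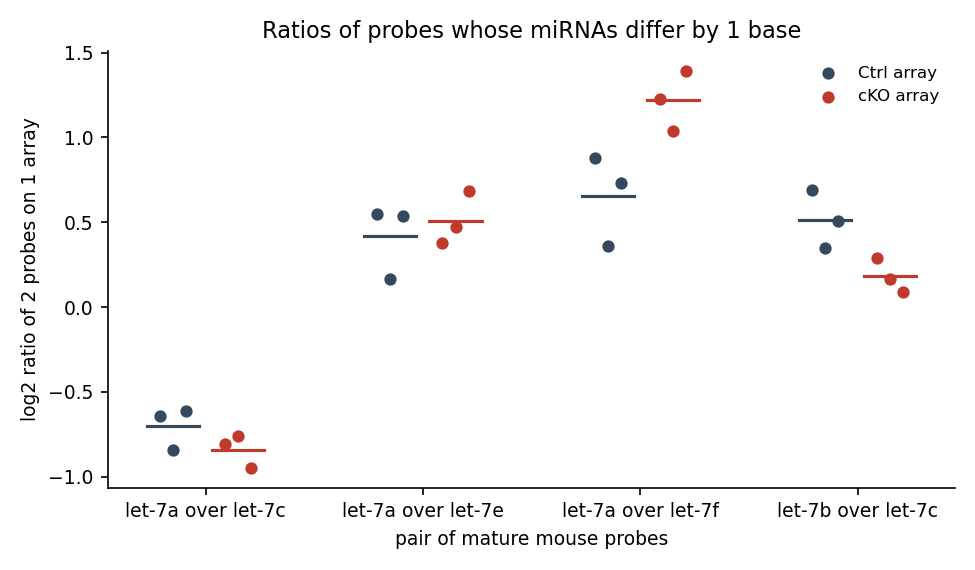
Log2 ratio of 2 mature probes on the same array for the 4 pairs of members that differ by 1 base, with points for arrays and bars for group means. Ctrl and cKO arrays are apart for let-7a over let-7f and for let-7b over let-7c and overlap for the other pairs; the height of a pair depends on the probes and has no meaning of its own.

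On the human-named probes the differences of let-7d and let-7g were smaller. The has- spelling of some names in the table was read as hsa-. Of the 22 human-named probes 0 passed limma's test in either direction, fitted on 1737 human-named probes of which 1.9% were higher and 0.115% lower; 3 were higher at an unadjusted p under 0.05 (let-7a, let-7c and let-7e*) and 0 lower, against 10.1% and 2.3% of all human-named probes. The mouse-named and the human-named probe had the same sign in all 9 mature pairs, in 3 of 5 star pairs and in 0 of 1 -P pairs. Both probes read the same RNA on the same arrays, so this is no independent evidence.

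The human-named let-7a probe read 2.18, 2.20 and 2.63 in cKO and 1.45, 1.30 and 1.36 in Ctrl, a log2 difference of 0.76 ± 0.22 (limma adjusted p = 0.147). Its groups were apart, as were those of the human-named let-7b, let-7c, let-7d and let-7e probes, where 11.5% of all human-named probes were apart and higher and 4.72% apart and lower. These shares cover human-named probes of every kind and brightness, while the 5 probes named here are mature and above background on all 6 arrays. The share among human-named probes like them was not computed. For let-7d the human-named probe read 1.43, 1.63 and 1.77 in cKO and 1.24, 1.24 and 1.27 in Ctrl, and its log2 difference was 0.36 ± 0.21 (limma adjusted p = 0.536), below the 0.77 ± 0.20 of the mouse-named probe. The human-named let-7g groups overlapped, with a log2 difference of 0.27 ± 0.21. On this probe cKO was higher in 3 of 3 same-numbered comparisons, but whether the numbers pair the arrays was not settled. let-7f, let-7i and miR-98 gave -0.13, 0.04 and -0.08.

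Brightness is a property of the probe as well as of the miRNA: over the 6 arrays the let-7i probes averaged 1.71 (mouse-named) and 5.18 (human-named). Levels of different members are therefore not ranked here. Of the human-named probes, 4 of 10 star and 2 of 3 -P probes were above background on all 6 arrays. The human-named star and -P probes had log2 differences between -0.26 and 0.41, and let-7g* (0.366, 0.361 and 0.378 in cKO, 0.409, 0.444 and 0.418 in Ctrl) was the one whose groups were apart with cKO lower. The highest, let-7e*, has no mouse-named counterpart on the array.

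**Figure D4:**
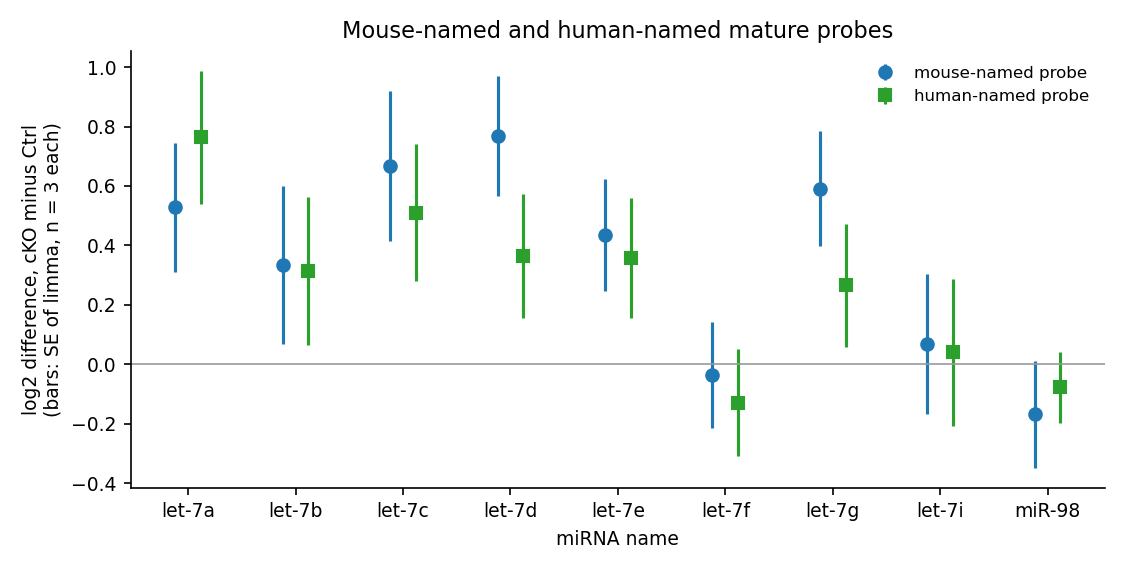
Log2 difference between cKO and Ctrl for the mouse-named (circles) and human-named (squares) mature probes of each miRNA, with bars for limma's SE (n = 3 each). Both probes lie above 0 for let-7a to let-7e and let-7g, near 0 for let-7i and below 0 for let-7f and miR-98 under the scaling used in the report; for let-7d they lie at 0.77 and 0.36.

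Several let-7 genes lie beside genes of the miR-99, miR-100 or miR-125 families, miRNAs known from blood stem cells and, for miR-99 and miR-100, for targeting mTOR. Mir99a lies 656 bases from Mirlet7c-1 and Mir99b 94 bases from Mirlet7e. Of 11 probes for these partners 0 passed limma's test in either direction (6.46% of all mouse probes higher, 0.369% lower) and 0 reached an unadjusted p under 0.05 (14.6% and 2.12%). Their median log2 difference was -0.00067, and 4 were above background on all arrays. miR-99a read 0.680, 0.509 and 0.438 in cKO and 0.607, 0.713 and 0.721 in Ctrl, a log2 difference of -0.35 ± 0.18 (limma adjusted p = 0.382), where let-7c stood at 0.67.

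The precursor probe miR-99a-P gave -0.41 ± 0.20 (limma adjusted p = 0.339). miR-99b, with a log2 difference of 0.39 ± 0.27 (limma adjusted p = 0.559), lay close to the 0.44 of let-7e, though its groups overlapped. miR-125a-5p and miR-125b-5p were above background on no array.

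RefSeq holds another pair of mouse miRNAs with the same seed, let-7k and miR-1961, and of these miR-1961 is on the array. Its sequence is shown because it matches let-7 through the seed and beyond.
miR-1961: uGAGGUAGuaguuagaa

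The mature miR-1961 probe read at most 0.433, above background on 2 of 3 cKO arrays and 0 of 3 Ctrl arrays, with a log2 difference of 0.10 ± 0.12. The miR-1961-P probe was bright and fell, with a mean of 16.3 ± 3.77 among knockouts against 37.7 ± 10.6 among controls (SD over 3 arrays each). Its log2 difference was -1.20 ± 0.28 (limma adjusted p = 0.0194). miR-202-3p, a more distant relative of the family, had a log2 difference of 0.24 ± 0.15 and did not pass (limma adjusted p = 0.519).

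The mouse probes whose course over the 6 arrays was most like the mean of the 9 mature family probes were sought among 473 other mature probes above the random-sequence mean. Likeness was the root mean square difference of the log2 values, each probe centred on its own mean. The closest were miR-678 (0.083), miR-466f-5p (0.0832), miR-697 (0.0841), miR-344 (0.0864) and miR-195 (0.0907), against a median of 0.258 over the 473. Of these, miR-678 and miR-697 were dim, with Ctrl means of 0.420 and 0.389, where background on the Ctrl arrays was 0.423 to 0.463. Their log2 differences ran from 0.26 for miR-344 to 0.41 for miR-678, and limma's test was not passed by any of the 5 (adjusted p between 0.0851 and 0.691).

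The differences depend on the scale set between the arrays. Median centring lowered the mature family mean to 0.32. Quantile normalization brought let-7c to 0.12 and let-7d to 0.40, and turned let-7i to -0.43. With snoRNA and GAPDH scaling, 7 of the 21 family probes were called lower, where 310 of all 1083 mouse probes were. The 7 were let-7a-2-P, let-7c-1*, let-7f*, let-7f-2-P, let-7g*, let-7i* and miR-98, none of which was above background on all arrays. Subtraction of the random-sequence background raised let-7d to 1.13 and let-7g to 0.98.

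**Figure D5:**
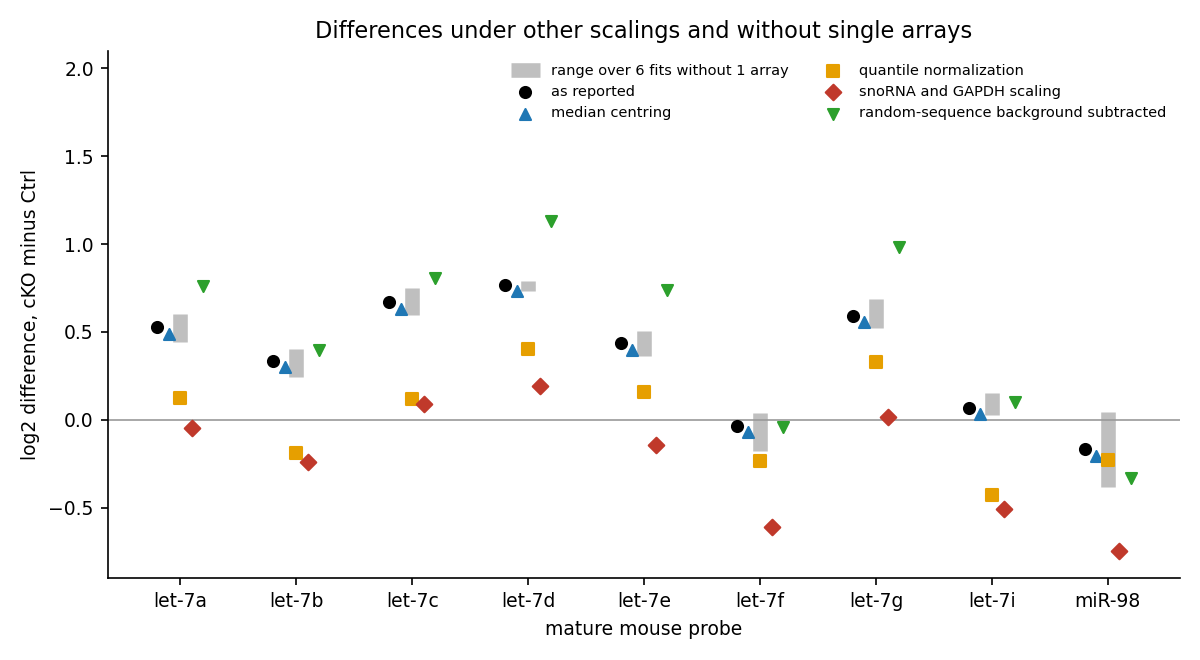
Log2 difference between cKO and Ctrl of the 9 mature mouse probes as reported (circles) and under 4 other treatments of the arrays (other symbols), with a grey bar for the range over the 6 fits that left out 1 array. The differences of let-7c, let-7d and let-7g stay above 0 under each treatment. Those of let-7a, let-7b, let-7e and let-7i turn below 0 with snoRNA and GAPDH scaling, and those of let-7b and let-7i also after quantile normalization.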

How the data were processed

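Total RNA (5 µg per sample) was reverse transcribed from biotin-tagged random octamers and detected with fluorescent streptavidin, per the labels' protocols. The hairpins hold the same bases as the mature strands, and how much of a mature probe's signal came from longer RNAs was not tested. The deposited values are linear relative intensities; how the authors read the images, corrected background and normalized is not given in the sources used here. For each array a constant was set as the scanner limit of 65535 divided by the array's highest value (829 to 987.5). Multiplied by it, at least 99.97% of the deposited intensity values are whole multiples of 0.25 within 0.01, so they were read as scanner readings divided by a constant.

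Log2 values were tested without floor or further scaling over 1083 mouse probes with limma 3.58.1 in R 4.3.3 (two-sided, with an intensity trend; threshold 0.05 after Benjamini-Hochberg adjustment), checked on simulated data. Human-named probes were fitted apart. Exact permutation tests used scipy 1.17.1, and figures matplotlib 3.10.9 in Python 3.11.15. Titles number the mice 1 to 3 in both groups. Deviations of same-numbered arrays correlated at 0.104, 0.124 and 0.178 over mouse probes, and those of differently numbered arrays at -0.208 to 0.114. The ranges overlap, so whether the numbers pair the arrays was not settled. The main fit and the permutation tests took no pairing, and a fit with replicate number as a block was run as an alternative. Members, lists and tests were chosen with earlier results of these data known. The number of arrays limits the precision. Named probes are all family probes, same-seed miRNAs, cluster partners and the 5 closest in course.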

Additional observations from a re-analysis of the deposited data

How the results depend on the processing

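Over 21 family probes, the count called higher was 1. It was 0 after median centring, quantile normalization, snoRNA and GAPDH scaling, or a fit on all probes except mismatch probes, 2 (let-7a and let-7d) with a floor of 1, which left 6 family probes to test, and 3 (let-7c, let-7d and let-7g) without the intensity trend. Without 1 array it ran from 0 to 2. The count called lower was 0, and 7 with snoRNA and GAPDH scaling. With the replicate block let-7d kept its call (limma adjusted p = 0.0351); the block changed no family call, and over all mouse probes 90 were higher and 5 lower. The mature mean of 0.35 moved to 0.0049 (quantile), 0.51 (random-sequence background subtracted) and -0.22 (snoRNA and GAPDH); the star mean of -0.0034 to 0.14 and -0.58, and the -P mean of -0.0047 to 0.25 and -0.58, under the last pair of settings.

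Over all mouse probes 70 were higher and 4 lower. The higher count was 32 after quantile normalization and 35 with snoRNA and GAPDH scaling, and ran from 33 (without Ctrl replicate 1) to 124 (without cKO replicate 3) without 1 array. The lower count was 8 and 310 under these scalings, 1 after background subtraction, 2 with all probes, without -P probes or without the trend, and 1 to 6 without 1 array.

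Signs turned only for differences that had not passed. With snoRNA and GAPDH scaling let-7a gave -0.048, let-7b -0.24, let-7e -0.14, let-7i -0.51, let-7a* -0.54, let-7c-2* -0.49, let-7d* -0.36, let-7e-P -0.45 and mir-98-P -0.55. Quantile normalization gave let-7b -0.19 and let-7i -0.43, median centring mir-98-P -0.015, and background subtraction let-7b* 0.17. Without 1 array, the ranges that crossed 0 were -0.022 to 0.10 for let-7a*, -0.067 to 0.079 for let-7b*, -0.050 to 0.20 for let-7c-2*, -0.18 to 0.037 for let-7f, -0.38 to 0.045 for miR-98 and -0.045 to 0.063 for mir-98-P. Causes were not tested. With 3 arrays a group, and no mouse-named star or -P probe above background on all arrays, small changes in these could go undetected.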
